A study of Homo sapiens with 6 samples.

Results

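Pigment cells make melanin in the melanosome, an organelle of lysosomal descent that is built, filled with enzymes and then carried to the cell edge along the cytoskeleton. MITF is the transcription factor at the centre of the lineage: SOX10 and PAX3 switch it on, cyclic AMP raised by the melanocortin receptor MC1R adds to that through CREB, and MITF in turn drives many melanosome genes through E-box motifs. Melanomas keep this program to varying degrees, and some lines express little of it. The genes described here are 34 members of the melanocyte lineage and of pigmentation, taken by symbol. Of these, 33 genes of the 18132 on the array were measured, by 96 of the 44988 probe sets that the array annotation assigns to a single gene. Expression of DCT was not analysed here, but its promoter windows are counted below.

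The arrays compare 2 groups of A375, an established human melanoma line. The knockdown cells carried a lentiviral short hairpin RNA against UBE2S, and the others were control A375 cells; the labels do not say what the control cells received. Each group held 3 biological replicates with 1 Affymetrix array each, and nothing in the labels says whether the knockdown is 1 clone or a pool. UBE2S is the ubiquitin-conjugating enzyme that lengthens ubiquitin chains on targets of the anaphase-promoting complex. The deposited log2 values had the median over the 6 arrays subtracted in every probe set, so they compare arrays and give no absolute level. All differences are knockdown minus control on this log2 scale.

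UBE2S itself read -1.13, -1.05 and -1.01 in knockdown arrays, against 1.06, 1.01 and 1.01 in control arrays. The difference was -2.09 (SE 0.043), with an adjusted p of 9.23e-08 in limma (Benjamini-Hochberg over all genes), and the groups were far apart. Array medians lay between -0.0089 and 0.0037. Scaling between arrays and the centring hold these medians near 0, so they cannot show whether an array stood apart. Because the values are centred, the label of these genes can be checked only coarsely. The rounding of the values places each probe set between 8 and 16 (high class), 4 and 8 (middle) or 2 and 4 (low) on the log2 scale before centring. By that reading 11 of the 33 genes (33.3%) had a probe set of the high class, against 35.8% of all genes. Neither PMEL, MLANA, TYR nor TYRP1, the classical pigment markers, had one, while SOX10 did. TYRP1, SLC24A5, KIT and GPM6B had probe sets of the low class only, as did 13.4% of all genes. Of 23 background control probe sets, 13 were low, 6 middle and 4 high, so a high class is no proof of expression.

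RefSeq promoter windows (GRCh38.p14), from 250 bases before to 50 bases after each listed start, were found for 28 of the 34 genes. The 7 below were picked to show the motifs that MITF binds and the CREB motif of MITF's own melanocyte start, beside the genes with the largest changes. They run 5′ to 3′ in the direction of the gene, and capitals mark every match, on either strand, to the E-boxes CATGTG and CACGTG, the longer TCATGTG that contains CATGTG, the cyclic AMP response element TGACGTCA, or the core of the interferon-stimulated response element, GAAA repeated after 2 bases.
MITF, the listed start farthest downstream (chr3:69936342-69936641, plus strand): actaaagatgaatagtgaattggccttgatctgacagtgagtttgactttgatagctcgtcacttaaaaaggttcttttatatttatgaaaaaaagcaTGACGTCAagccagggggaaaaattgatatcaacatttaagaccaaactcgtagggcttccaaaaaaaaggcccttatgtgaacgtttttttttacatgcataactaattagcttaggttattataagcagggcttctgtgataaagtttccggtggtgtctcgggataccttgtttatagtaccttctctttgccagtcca
TYRP1 (chr9:12693135-12693434, plus strand): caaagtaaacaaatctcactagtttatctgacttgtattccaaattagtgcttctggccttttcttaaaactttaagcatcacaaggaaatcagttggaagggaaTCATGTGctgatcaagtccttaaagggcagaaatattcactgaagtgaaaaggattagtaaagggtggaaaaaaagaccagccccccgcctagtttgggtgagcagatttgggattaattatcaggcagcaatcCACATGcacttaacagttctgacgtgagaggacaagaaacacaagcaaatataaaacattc
TYR (chr11:89177625-89177924, plus strand): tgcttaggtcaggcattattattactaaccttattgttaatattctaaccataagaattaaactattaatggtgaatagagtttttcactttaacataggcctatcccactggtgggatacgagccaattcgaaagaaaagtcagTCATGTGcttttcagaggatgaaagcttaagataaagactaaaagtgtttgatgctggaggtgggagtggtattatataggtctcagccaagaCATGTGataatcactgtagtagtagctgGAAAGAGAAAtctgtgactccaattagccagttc
GPNMB (chr7:23246525-23246824, plus strand): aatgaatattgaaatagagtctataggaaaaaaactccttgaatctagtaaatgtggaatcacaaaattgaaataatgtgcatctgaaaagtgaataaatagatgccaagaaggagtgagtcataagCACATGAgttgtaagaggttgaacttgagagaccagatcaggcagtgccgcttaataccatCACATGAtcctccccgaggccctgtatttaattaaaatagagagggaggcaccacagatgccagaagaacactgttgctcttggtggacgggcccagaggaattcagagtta
GPR143 (chrX:9765798-9766097, minus strand): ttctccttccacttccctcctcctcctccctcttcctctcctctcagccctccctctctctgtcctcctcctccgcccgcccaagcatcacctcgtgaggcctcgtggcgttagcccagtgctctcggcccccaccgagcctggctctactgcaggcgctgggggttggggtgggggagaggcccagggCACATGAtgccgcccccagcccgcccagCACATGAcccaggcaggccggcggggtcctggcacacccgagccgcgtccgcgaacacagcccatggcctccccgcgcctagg
RLBP1 (chr15:89221530-89221829, minus strand): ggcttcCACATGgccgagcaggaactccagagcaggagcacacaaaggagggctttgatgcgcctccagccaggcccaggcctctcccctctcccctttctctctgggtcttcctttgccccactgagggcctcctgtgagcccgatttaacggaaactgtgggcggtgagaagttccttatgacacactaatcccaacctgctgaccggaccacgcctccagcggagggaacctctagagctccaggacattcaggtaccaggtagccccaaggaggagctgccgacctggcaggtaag
RAB27A, the listed start farthest upstream (chr15:55319074-55319373, minus strand): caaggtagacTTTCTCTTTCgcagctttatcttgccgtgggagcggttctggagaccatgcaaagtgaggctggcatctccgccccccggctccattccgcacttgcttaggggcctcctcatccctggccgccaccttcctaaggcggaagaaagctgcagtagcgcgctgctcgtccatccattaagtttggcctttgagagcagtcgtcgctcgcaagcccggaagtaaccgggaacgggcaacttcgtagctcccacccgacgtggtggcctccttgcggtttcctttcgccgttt

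With the start base counted as 0, the MITF window holds TGACGTCA at position -152 and no E-box of these letters. TCATGTG begins at -145 in TYRP1 and at -105 in TYR. It stands on the opposite strand at -123 and -62 in GPNMB and at -61 and -33 in GPR143. RLBP1 has CACATG, the reverse complement of CATGTG, at -244. The shown window of RAB27A holds neither CATGTG nor CACGTG, and has the interferon response core on the opposite strand at -240. Other E-box letters were not searched.

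CATGTG was present in the windows of 15 of the 28 genes (53.6%), against 13.4% of 27305 genes, and in 18 of their 52 windows (34.6%), against 11.1% of 35116 windows. These genes have more listed starts (1.86 windows per gene, against 1.29 over all genes), and windows of 1 gene can overlap. TCATGTG was found in 6 genes (21.4%, against 3.59%), and CACGTG in 3 (10.7%, against 8.77%). TGACGTCA was in 3 genes, MITF, GPM6B and HPS4 (10.7%, against 2.25%). The interferon response core was in 3, TYR, RAB27A and CAPN3 (10.7%, against 4.38%). The list was drawn up with known MITF targets in it, and a match is a description of letters, not of binding.

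In UBE2S knockdown cells most of the pigment and lineage genes that changed were higher, while MITF was lower. Of the 33 genes, 16 rose and 4 fell, and 13 did not pass the test (adjusted p under 0.05 in limma, over all genes). That is 60.6% called, against 40.1% of all genes; 48.5% rose, against 21.4%, and 12.1% fell, against 18.6%. Their median difference was 0.14, against -0.0038 over all genes. It was 0.28 when each gene was read by its probe set of largest variance. That choice is made over all arrays of both groups and so favours wide differences in any gene with several probe sets. With no median over all genes for that setting, the 0.28 cannot be read as a stronger difference. The groups did not overlap in 21 genes (63.6%, against a background of 50%), with 17 higher (51.5%, against 26.2%) and 4 lower (12.1%, against 23.9%). Most changes were small: 2 of the rises, RLBP1 and RAB27A, reached 2-fold, as did 1.06% of all genes in either direction, and none of the falls did. In bulk RNA, fewer cells of a type and less RNA per cell cannot be told apart. These counts depend on how the arrays are scaled. Hybridization spike-ins read 0.17 higher on the knockdown arrays, and relative to them 11 rose and 10 fell with a median of -0.029, while the median of all genes was -0.17, with 9.73% of all genes higher and 50.7% lower. Relative to poly-A spike-ins 13 rose and 5 fell, with a median of 0.040 against -0.10 for all genes. Of all genes, 13.7% were then higher and 34.7% lower. Differences below are relative to the array-wide level as deposited.

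**Figure D1:**
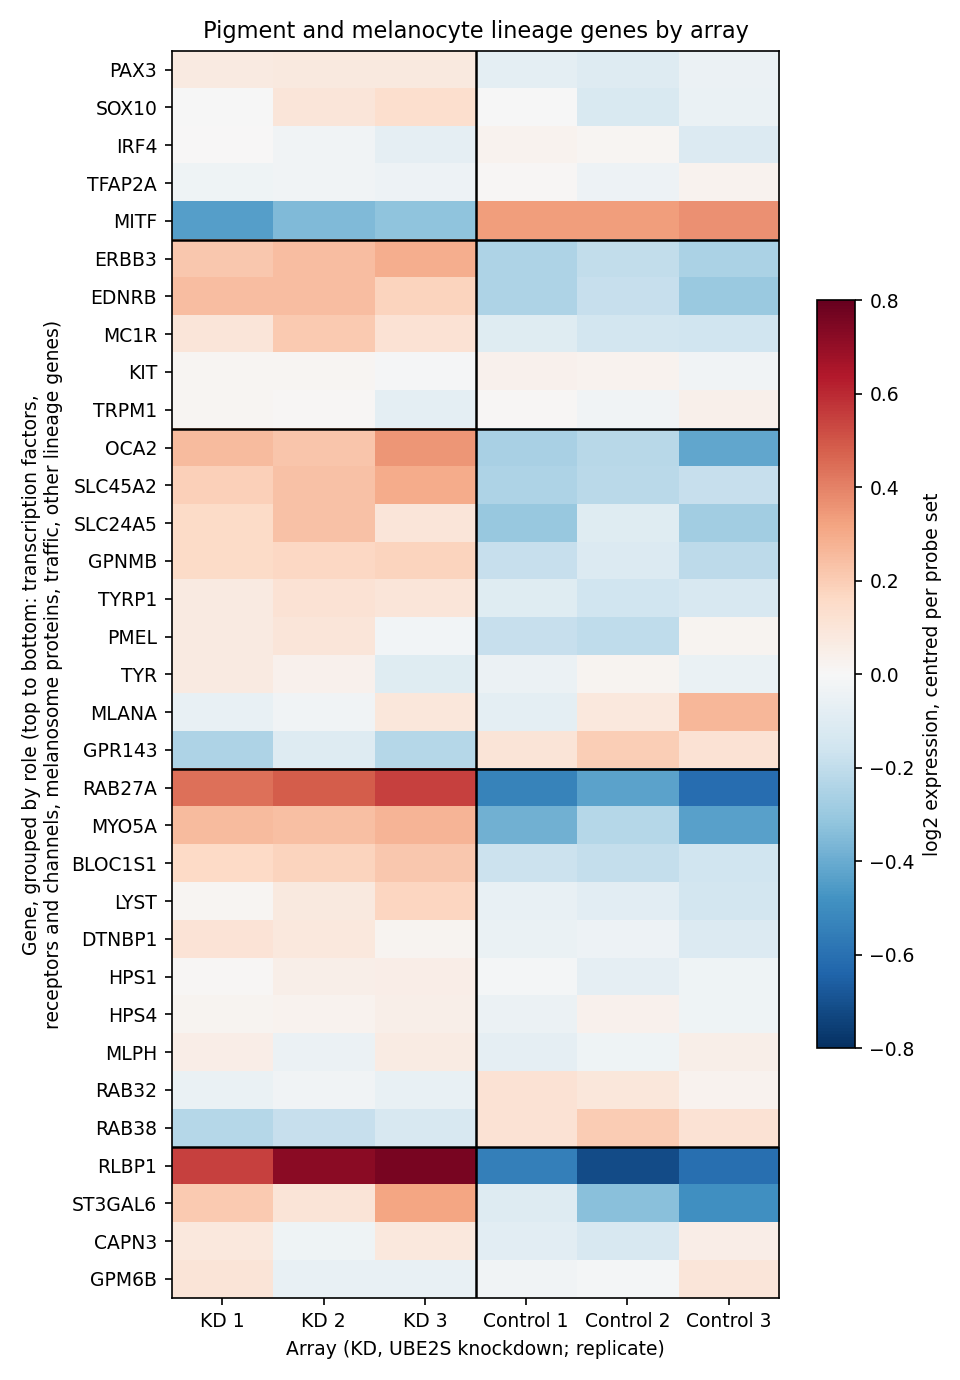
Log2 expression of the 33 genes (rows, grouped by role) on the 3 UBE2S knockdown arrays and the 3 control arrays, with probe sets centred and then averaged per gene. MITF, GPR143, RAB38 and RAB32 are below 0 on the knockdown arrays and above 0 on the control arrays, and RLBP1 and RAB27A show the widest contrast in the other direction.

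MITF, the master transcription factor of the lineage, read -0.44, -0.35 and -0.32 in knockdown arrays, against 0.34, 0.34 and 0.37 in control arrays. All 3 knockdown values lay below all control values, with a gap of 0.66 between the groups. It fell by 0.72 (SE 0.041), to 60.7% of control (limma, adjusted p 6.63e-06). Both of its probe sets fell, at -0.66 and -0.78, and both were of the middle class. The probe sets do not tell which start site was used.

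Of the factors upstream of MITF, PAX3 passed as higher and SOX10 did not pass. PAX3, a paired-box factor that activates MITF, read 0.075, 0.078 and 0.077 in knockdown arrays, against -0.081, -0.11 and -0.047 in control arrays, without overlap. It rose by 0.15 (SE 0.035, limma, adjusted p 0.0078), which ended under both spike-in scalings (-0.013 with hybridization and 0.056 with poly-A spike-ins). Its 6 probe sets ranged from -0.022 to 0.45, and 2 of them passed alone. SOX10, the neural crest factor that opens the lineage, stood at 0.13 (SE 0.051), with values of -0.0051, 0.10 and 0.13 in knockdown arrays, against -0.00018, -0.12 and -0.052 in control arrays. The groups overlapped and the adjusted p in limma was 0.0703. Without knockdown replicate 1 its difference of 0.17 passed. The high-class 1 of its 2 probe sets passed alone as higher (0.17), and the other did not (0.095). TFAP2A, an AP-2 factor that acts with MITF at melanocyte genes, stood at -0.035 (SE 0.035) and IRF4, a MITF partner in control of TYR, at -0.014 (SE 0.048); neither passed, and both overlapped. MITF was thus the only 1 of the 5 factors that fell under the deposited scaling, although TFAP2A and IRF4 passed as lower with hybridization spike-ins (-0.20 and -0.18). As deposited, 40% of the 5 factors were called, against 40.1% of all genes.

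Among the receptors and the channel, 3 of 5 rose and none fell as deposited (60% called, against 40.1% of all genes). With hybridization spike-ins KIT (-0.17) and TRPM1 (-0.19) passed as lower. ERBB3, a neuregulin receptor of neural crest cells, read 0.21, 0.25 and 0.29 in knockdown arrays, against -0.25, -0.20 and -0.25 in control arrays. It rose by 0.48 (SE 0.038), with an adjusted p of 3.06e-05, and its 3 probe sets all rose, from 0.37 to 0.66. Knockdown arrays were high and control arrays low with no overlap. EDNRB, the endothelin receptor that melanoblasts need, read 0.25, 0.25 and 0.18 in knockdown arrays, against -0.25, -0.19 and -0.30 in control arrays. This gene rose by 0.47 (SE 0.043), again without overlap (adjusted p 6.80e-05), and each of its 4 probe sets rose, the smallest by 0.26 and the largest by 0.72. MC1R, which receives melanocyte-stimulating hormone, rose by 0.28 (SE 0.042) with 1 probe set (adjusted p 0.00105). Its values were 0.10, 0.21 and 0.12 in knockdown arrays, against -0.10, -0.15 and -0.16 in control arrays. They did not overlap, and the call ended with hybridization spike-ins (0.11). KIT, the receptor of stem cell factor, stood at -0.0039 (SE 0.036) and TRPM1, a cation channel whose gene carries the microRNA miR-211, at -0.025 (SE 0.041). Neither passed with the deposited scaling, both groups overlapped, and the probe sets were of the low class for KIT (3 of 3) and mostly so for TRPM1 (3 of 4). A single TRPM1 probe set passed alone as lower (-0.18). The 95% intervals were -0.086 to 0.078 for KIT and -0.12 to 0.070 for TRPM1.

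Of 9 melanosome proteins, 5 rose and 1 fell (66.7% called, against 40.1% of all genes, with 21.4% higher and 18.6% lower). The 3 membrane transporters and channels of the organelle all rose. OCA2, an anion channel that helps to set melanosome pH, read 0.25, 0.22 and 0.35 in knockdown arrays, against -0.26, -0.22 and -0.41 in control arrays. It rose by 0.57 (SE 0.060) with its 1 probe set, of the high class, and an adjusted p of 1.31e-04. Control replicate 3 was the lowest and knockdown replicate 3 the highest, and no values overlapped. SLC45A2, a sugar and proton transporter of the melanosome, read 0.19, 0.23 and 0.29 in knockdown arrays, against -0.25, -0.21 and -0.19 in control arrays. It rose by 0.46 (SE 0.041, adjusted p 6.22e-05) and did so in each of its 3 probe sets, between 0.32 and 0.68. SLC24A5, a cation exchanger required for dark pigment, rose by 0.38 (SE 0.062, adjusted p 0.00146), with values of 0.15, 0.23 and 0.10 in knockdown arrays, against -0.30, -0.10 and -0.28 in control arrays. Its single probe set was of the low class, and the groups did not overlap.

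Of the enzymes and structural proteins of the melanosome, TYRP1 passed and TYR, PMEL and MLANA did not. TYR, which carries out the first step of melanin synthesis, read 0.069, 0.033 and -0.094 in knockdown arrays, against -0.045, 0.023 and -0.051 in control arrays. The groups overlapped and the difference was 0.027 (SE 0.051), with a 95% interval of -0.090 to 0.14 and an adjusted p of 0.728 in limma. Its 2 probe sets, of kinds that can hybridize to related sequences, gave -0.075 and 0.13. TYRP1, a related enzyme that stabilizes TYR, rose by 0.22 (SE 0.036), with values of 0.072, 0.12 and 0.10 in knockdown arrays, against -0.094, -0.16 and -0.13 in control arrays. Those values did not overlap (adjusted p 0.00144), yet 1 of its 2 low-class probe sets passed alone and the call ended with hybridization spike-ins (0.056). PMEL, the fibril protein on which melanin is laid down, stood at 0.17 (SE 0.065) and missed the threshold (adjusted p 0.072). Its values were 0.069, 0.10 and -0.020 in knockdown arrays, against -0.18, -0.20 and 0.020 in control arrays. Control replicate 3 lay apart from the other control arrays, and without it the difference of 0.24 passed. MLANA, a small membrane protein of early melanosomes, stood at -0.089 (SE 0.085) and overlapped, with a control spread of 0.17 (SD, n = 3). With hybridization spike-ins it passed as lower (-0.26).

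GPR143 and GPNMB, both melanosome membrane proteins, differed in direction. GPR143, the receptor lost in ocular albinism, read -0.24, -0.10 and -0.23 in knockdown arrays, against 0.10, 0.20 and 0.11 in control arrays. It fell by 0.33 (SE 0.050) in its 1 probe set, with no overlap and an adjusted p of 0.0011. GPNMB, a glycoprotein related to PMEL, read 0.15, 0.16 and 0.18 in knockdown arrays, against -0.19, -0.11 and -0.21 in control arrays. It rose by 0.33 (SE 0.039, adjusted p 2.60e-04 in limma) with no overlap, and 4 of its 5 probe sets rose, up to 0.58. The other, of a kind that can hybridize to related sequences, stood at -0.11 and did not pass. GPR143 and GPNMB both have TCATGTG at 2 positions in the windows printed above, on the same strand.

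**Figure D2:**
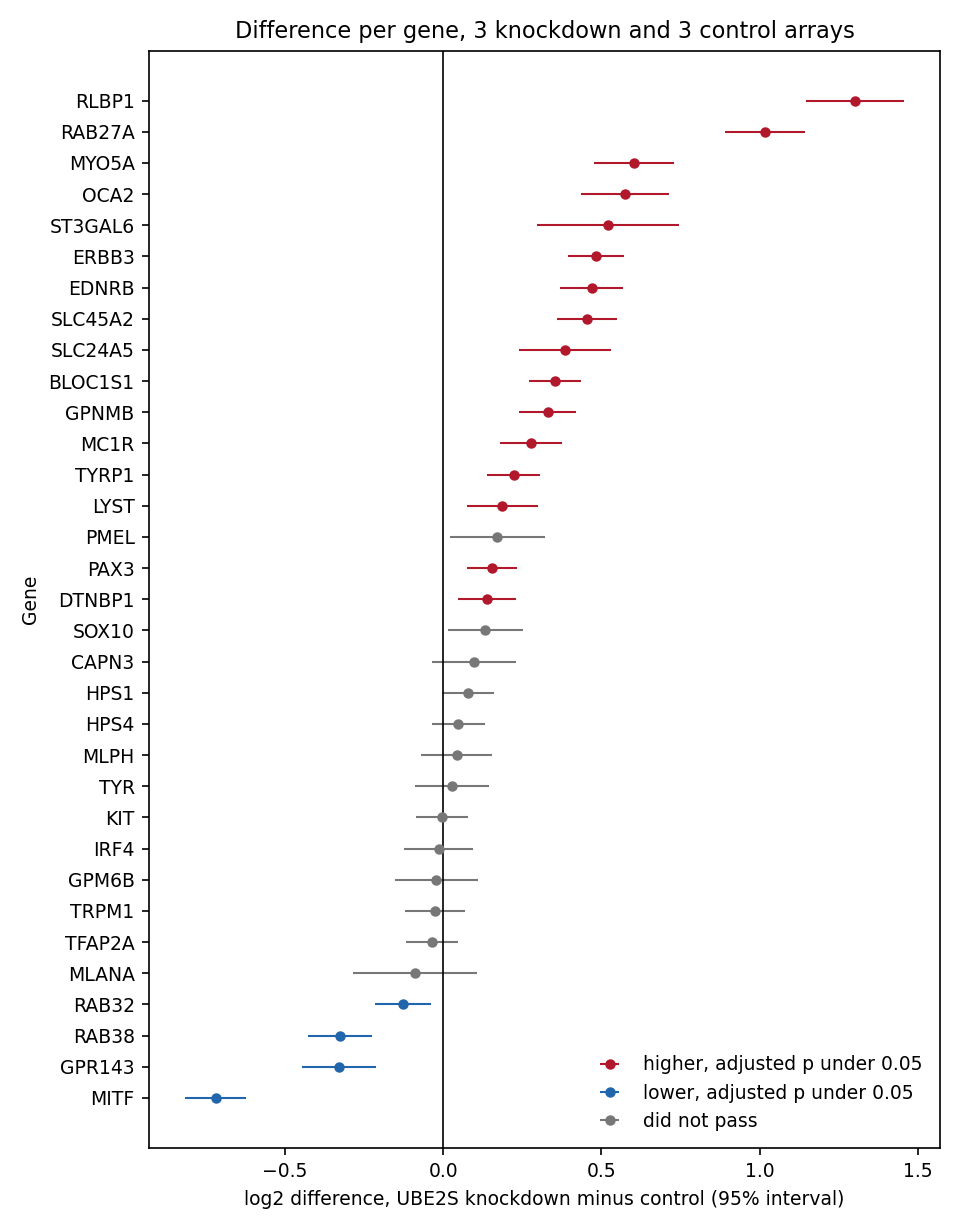
Log2 difference between 3 UBE2S knockdown and 3 control arrays for each of the 33 genes, ordered by size, with the 95% interval of the limma fit. Red points rose, blue points fell and grey points did not pass; the range runs from -0.72 for MITF to 1.30 for RLBP1.

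The transport machinery held a 2-fold rise. RAB27A is the small GTPase that ties a mature melanosome to its motor. It read 0.44, 0.48 and 0.55 in knockdown arrays, against -0.54, -0.43 and -0.61 in control arrays. The gap between the groups was 0.87, the difference 1.02 (SE 0.055), or 2.02-fold, and the adjusted p 4.86e-06. All 6 probe sets of RAB27A passed, from 0.57 to 1.40. Those at 0.86, 1.29 and 1.40 are of kinds that can hybridize to related sequences, and the others gave 0.57, 0.99 and 0.99. MYO5A, the myosin motor at the other end of that tether, read 0.25, 0.24 and 0.27 in knockdown arrays, against -0.38, -0.23 and -0.43 in control arrays. It rose by 0.60 (SE 0.055), with an adjusted p of 6.35e-05, and both of its probe sets rose. MLPH, the adaptor between RAB27A and MYO5A, stood at 0.042 (SE 0.048) and overlapped, with values of 0.054, -0.048 and 0.064 in knockdown arrays, against -0.071, -0.034 and 0.049 in control arrays. Its 7 probe sets ranged from -0.19 to 0.25. The lowest of them, of a kind that can hybridize to related sequences, passed alone as lower. In this tether the GTPase and the motor rose and the adaptor did not pass.

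RAB38 and RAB32 are closely related GTPases that deliver melanin enzymes to the growing melanosome. RAB38 read -0.23, -0.19 and -0.13 in knockdown arrays, against 0.12, 0.20 and 0.12 in control arrays. It fell by 0.33 (SE 0.044) without overlap (adjusted p 5.29e-04), and its 3 high-class probe sets gave -0.29, -0.33 and -0.36. RAB32 read -0.055, -0.029 and -0.062 in knockdown arrays, against 0.11, 0.093 and 0.029 in control arrays. The 1 probe set fell by 0.13 (SE 0.038) with an adjusted p of 0.0283. This call was lost without any 1 of 5 arrays in turn (all but control replicate 3) and with the replicate number as a block. The same probe set did not pass in the limma fit per probe set (adjusted p 0.0614). Nor did it pass when every gene was read by its probe set of largest variance.

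Subunits of the complexes that build lysosome-related organelles rose in some cases. BLOC1S1, a subunit of BLOC-1, read 0.16, 0.18 and 0.21 in knockdown arrays, against -0.17, -0.19 and -0.16 in control arrays. It rose by 0.35 (SE 0.035) without overlap (adjusted p 1.02e-04); in RefSeq its gene overlaps the read-through transcript BLOC1S1-RDH5 and ITGA7, and what the probe set shares with them was not tested. DTNBP1, the dysbindin subunit of the same complex, rose by 0.14 (SE 0.040) with an adjusted p of 0.0252. Only 1 of its 4 probe sets passed, at 0.46, the others lay between -0.082 and 0.15, and the call was lost without either of knockdown replicates 1 and 2 or control replicates 1 and 3, and under both spike-in scalings. LYST, whose loss gives giant melanosomes and lysosomes, rose by 0.19 (SE 0.049, adjusted p 0.0163). Its probe sets gave 0.44, 0.11 and 0.0039, of which the first passed, and the call was lost without control replicate 3 and under both spike-in scalings. HPS1 and HPS4, the partners in BLOC-3, stood at 0.079 (SE 0.036) and 0.048 (SE 0.037) and did not pass. HPS1 did not overlap between the groups, at 0.0095, 0.045 and 0.053 in knockdown arrays, against -0.018, -0.074 and -0.037 in control arrays, and 1 of its 5 probe sets passed alone as higher (0.28).

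The remaining genes mark the lineage without building the melanosome. RLBP1, a retinoid carrier best known from the eye and a MITF target there, had the largest rise of the 33. It read 0.55, 0.72 and 0.76 in knockdown arrays, against -0.55, -0.72 and -0.60 in control arrays. The gap was 1.10, the difference 1.30 (SE 0.067), or 2.47-fold, and the adjusted p 3.73e-06 with 1 middle-class probe set. It ranked 38 among all genes by size of rise. ST3GAL6, a sialyltransferase, read 0.21, 0.10 and 0.31 in knockdown arrays, against -0.10, -0.34 and -0.49 in control arrays. It rose by 0.52 (SE 0.10) with 1 high-class probe set (adjusted p 0.00312), and although the control arrays were spread (SD 0.20), the groups did not overlap. CAPN3, a calpain protease, stood at 0.10 (SE 0.057) and GPM6B, a membrane protein of neural crest cells, at -0.022 (SE 0.057); both overlapped and neither passed. Of the 3 probe sets of CAPN3, 1 passed at 0.27, and it is of a kind that can hybridize to related sequences.

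**Figure D3:**
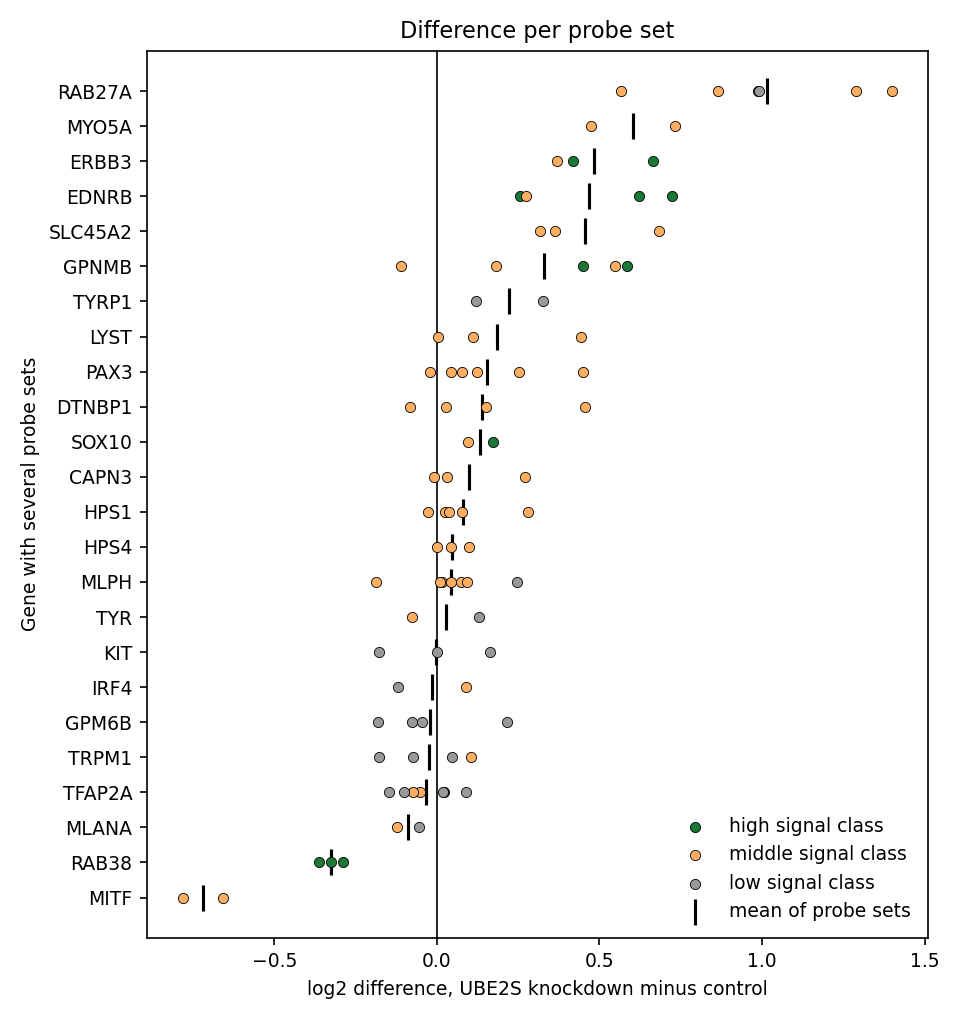
Log2 difference of each probe set for the 24 genes read by several, coloured by signal class, with a black bar at the mean used for the gene. The probe sets of RAB27A, MYO5A, ERBB3, EDNRB, SLC45A2, RAB38 and MITF all lie on 1 side of 0, whereas those of PAX3, DTNBP1, GPNMB, MLPH, KIT and TFAP2A lie on both sides.

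The agreement of probe sets divides the rises. Of the 10 higher genes with several probe sets, 5 had every probe set called higher (SLC45A2, RAB27A, MYO5A, EDNRB and ERBB3) and 7 had every probe set above 0. Over all 96 probe sets of the 33 genes, 36 were called higher and 8 lower (45.8% called, against 36.9% of all probe sets, fitted per probe set). In GPNMB, PAX3, LYST, TYRP1 and DTNBP1 the mean of the gene rests on some probe sets more than on others. ERBB3, MYO5A, EDNRB and RAB38, among others, also include a probe set of a kind that can hybridize to related sequences.

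Of the 16 rises, 11 kept their call under the gene-level alternatives that could be fitted for them (15, or 14 for SLC24A5), both spike-in scalings included: OCA2, SLC45A2, SLC24A5, RAB27A, MYO5A, RLBP1, EDNRB, GPNMB, ST3GAL6, ERBB3 and BLOC1S1. Of the 4 falls, MITF, GPR143 and RAB38 did so. Read by single probe sets, GPNMB was the exception among these 14 genes, with 1 of its 5 not called. With hybridization spike-ins MITF stood at -0.89, and RLBP1 and RAB27A at 1.13 and 0.85.

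**Figure D4:**
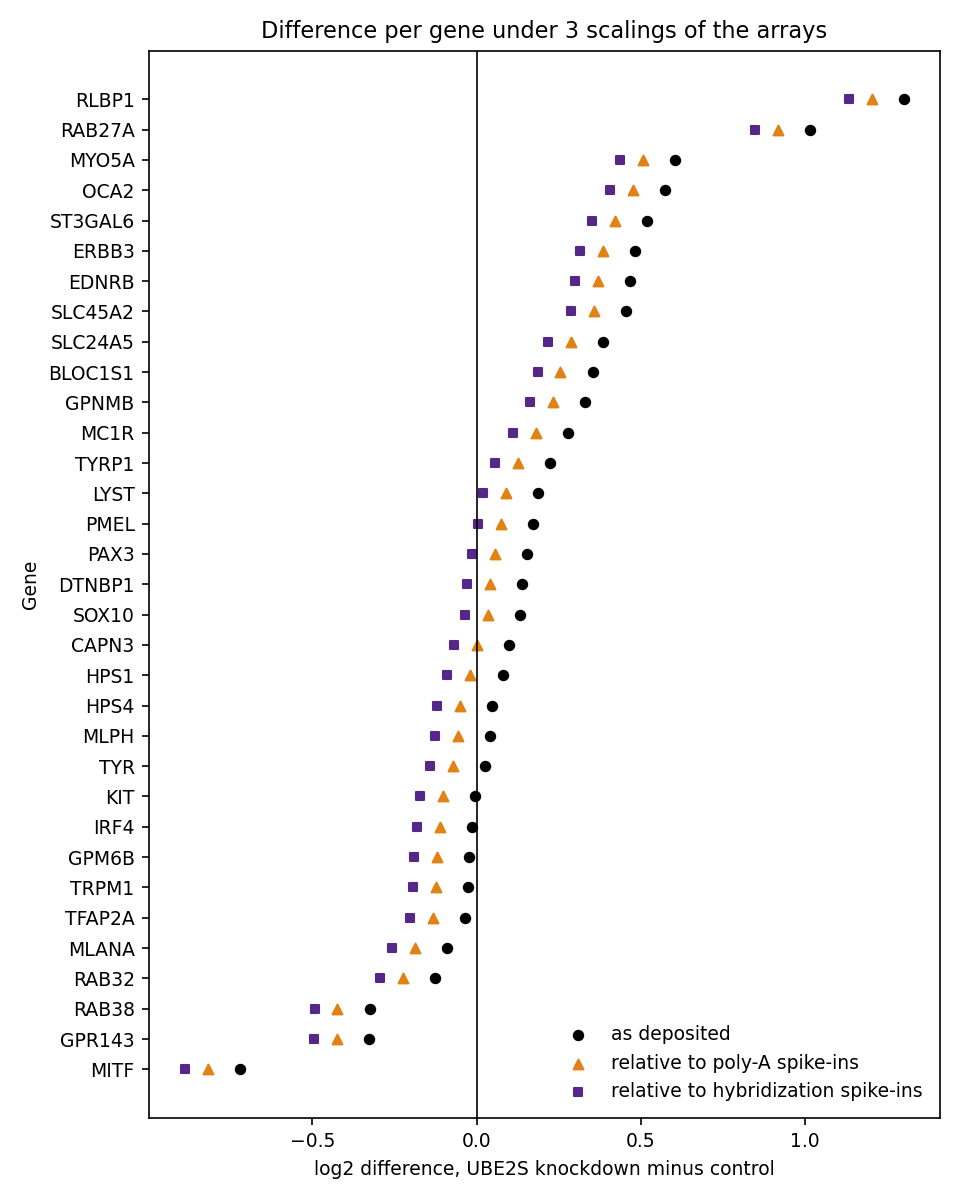
Log2 difference between UBE2S knockdown and control for the 33 genes as deposited (black), relative to poly-A spike-ins (orange) and relative to hybridization spike-ins (purple). Every gene shifts to lower values by the same amount within a scaling, so that genes near 0 change side while MITF, RAB27A and RLBP1 keep theirs.

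Genes with the E-box CATGTG in a promoter window were not all alike. Of the 14 measured, 9 rose, 1 fell (GPR143) and 4 did not pass (TYR, TRPM1, CAPN3 and HPS4), with a median of 0.25. The 13 measured genes whose windows lack it included 5 rises and 2 falls, with a median of -0.0039. Over all genes 21.4% rose and 18.6% fell. The medians of the genes with and without it are descriptions, and the difference between them was not tested. SOX10, PMEL, SLC45A2, RAB38, ERBB3 and HPS1 had no window and are in neither group.

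Further genes of the pathway were read from lists that hold none of the 34 genes, though 6 entries recur between lists. The lists were chosen with earlier results of these data known, so their counts are descriptions. Each count below stands against 40.1% of all genes called, 21.4% higher and 18.6% lower as deposited, and 9.73% higher and 50.7% lower with hybridization spike-ins. Of 24 measured other markers of melanocytes or the neural crest, 17 rose and 1 fell (75.0% called, against 40.1% of all genes), with a median of 0.24. S100B, a calcium-binding protein used to stain melanoma, read 0.51, 0.56 and 0.55 in knockdown arrays, against -0.51, -0.56 and -0.57 in control arrays. The glutaminyl cyclase QPCT rose by 0.82 (SE 0.046) and the coregulator CITED1 rose by 0.52 (SE 0.12), while CDK5R1, an activator of the kinase CDK5, fell by 0.59 (SE 0.061). With hybridization spike-ins 9 rose and 4 fell.

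Other genes of melanosome building and transport moved both ways. Of 39 measured, 15 rose and 7 fell (56.4% called, against 40.1% of all genes), with a median of 0.0070. The proton pump subunit ATP6V1A rose by 0.50 (SE 0.037), the lysosomal channel MCOLN3 rose by 0.40 (SE 0.046) and the BLOC-1 subunit BLOC1S6 rose by 0.39 (SE 0.047). SNAPIN, another BLOC-1 subunit, read -0.57, -0.59 and -0.48 in knockdown arrays, against 0.48, 0.53 and 0.48 in control arrays. SNAPIN fell by 1.04 (SE 0.041), further than any of the 33 genes. ATP7A, the copper pump that supplies TYR, fell by 0.60 (SE 0.053), and the myosin MYO1D fell by 0.43 (SE 0.049). With hybridization spike-ins 5 of the list rose and 19 fell.

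A list of signals and factors placed upstream of MITF gave 10 rises and 7 falls among 40 measured. That is 42.5% called, against the background of 40.1%, with a median of 0.019. It also holds TBX3 and TBX2, and TBX2 recurs among the MITF targets below. The place of each gene in the pathway was not tested. With hybridization spike-ins the split was 5 higher and 20 lower. SIK2, a kinase that restrains CREB-driven MITF transcription, rose by 0.50 (SE 0.045), the protein kinase A subunit PRKACB rose by 0.39 (SE 0.042) and the adenylyl cyclase ADCY9 rose by 0.38 (SE 0.046). TFAP2B, an AP-2 factor, fell by 0.53 (SE 0.034), POU3F2, a POU factor that can repress MITF in melanoma, fell by 0.44 (SE 0.10) and the T-box factor TBX3 fell by 0.43 (SE 0.037). CREB1, which binds the motif seen in the MITF window, read -0.13, -0.024 and -0.091 in knockdown arrays, against 0.047, 0.089 and 0.068 in control arrays. It fell by 0.15 (SE 0.040, adjusted p 0.0179), and the call was lost without knockdown replicate 1 or without control replicate 2. LEF1, a partner of beta-catenin (-0.12, SE 0.050), KITLG, the ligand of KIT (-0.068, SE 0.050), ZEB2 (0.063, SE 0.047) and SOX9 (0.055, SE 0.052) did not pass; with the spike-in scalings LEF1 and KITLG passed as lower (-0.28 and -0.24 with hybridization spike-ins). Read by the probe set of largest variance, LEF1 (-0.41) and KITLG (-0.30) passed as lower and ZEB2 (0.43) as higher, and LEF1 (-0.14) also passed with array weights.

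MITF targets with no pigment role went in both directions. Of 32 measured, 11 rose and 8 fell (59.4% called, against 40.1% of all genes), with a median of -0.0040, against 4 rises and 16 falls with hybridization spike-ins. ASAH1, acid ceramidase, rose by 0.67 (SE 0.045), the protease CTSK rose by 0.43 (SE 0.056) and the adaptor SORBS2 rose by 0.40 (SE 0.039). SCD, stearoyl-CoA desaturase, fell by 0.91 (SE 0.049), the phosphatase DUSP4 fell by 0.65 (SE 0.043), and BCL2A1, a survival gene, fell by 0.51 (SE 0.062). A further list held relatives of MITF, their partners, and the other transcription factors USF1, USF2 and MAX. Of its 13 genes, 4 rose and 4 fell (61.5% called, against 40.1% of all genes), or 2 and 6 with hybridization spike-ins. TFEB, the lysosomal relative, passed narrowly at 0.11 (SE 0.039, adjusted p 0.0494). Omitting any 1 of the 6 arrays ended this call, and the difference turned to -0.055 with hybridization spike-ins. TFE3 (0.015, SE 0.054) and TFEC (-0.018, SE 0.067) did not pass. The Rag GTPase RRAGC rose by 0.52 (SE 0.036), USF2 rose by 0.32 (SE 0.038) and RRAGD rose by 0.19 (SE 0.040), the last lost under both spike-in scalings and with the median of probe sets. RRAGA fell by 0.32 (SE 0.034), MAX fell by 0.30 (SE 0.039) and RRAGB fell by 0.22 (SE 0.061), the last lost without knockdown replicate 2 or control replicate 2.

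Markers of the undifferentiated melanoma state, in which MITF is typically low, moved in both directions. Of 31 measured, 7 rose and 14 fell (67.7% called, against 40.1% of all genes), with a median of -0.13; hybridization spike-ins gave 5 rises and 20 falls. AXL, the receptor kinase that marks that state, read 0.42, 0.42 and 0.39 in knockdown arrays, against -0.48, -0.39 and -0.51 in control arrays. AXL rose by 0.87 (SE 0.042), the receptor TGFBR2 rose by 0.79 (SE 0.062) and the AP-1 factor JUN rose by 0.72 (SE 0.037). CCN1, a matricellular protein, fell by 0.9997 (SE 0.045), the adhesion receptor CD44 fell by 0.79 (SE 0.034) and tropomyosin TPM1 fell by 0.78 (SE 0.034). EGFR fell by 0.16 (SE 0.040), which was lost without knockdown replicate 1 or with the median of probe sets, and NGFR, the neural crest receptor, stood at 0.024 (SE 0.043) and did not pass.

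**Figure D5:**
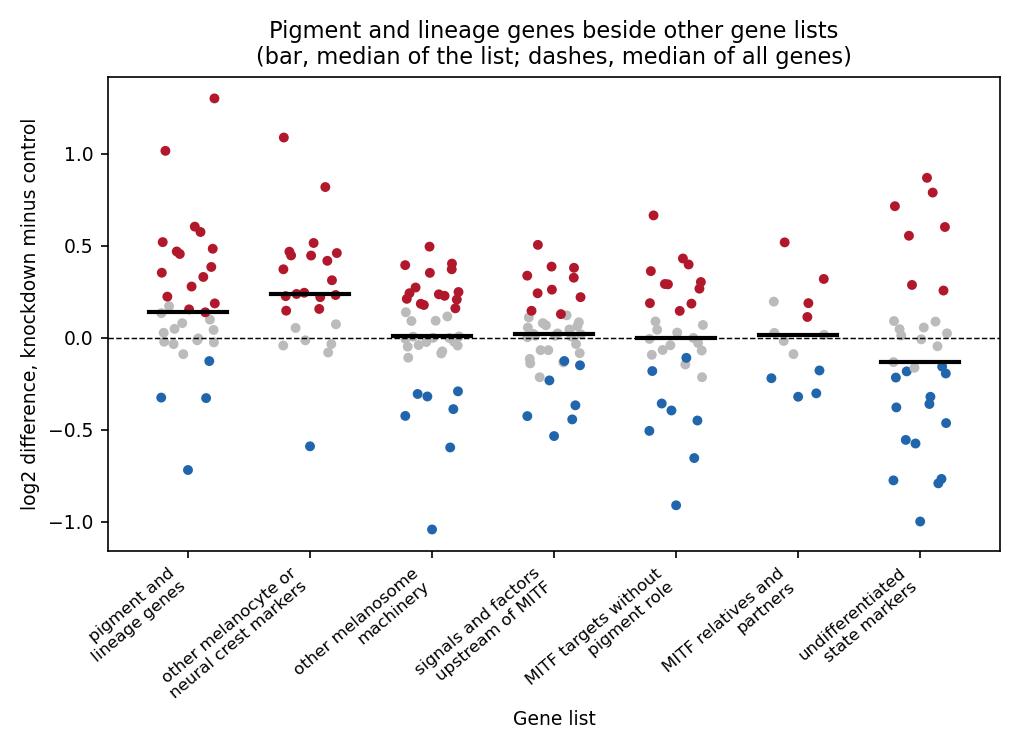
Log2 difference between UBE2S knockdown and control for each gene of 7 lists, with the pigment and lineage genes at the left. Red points rose, blue points fell and grey points did not pass; bars mark the list medians, which run from -0.13 for the undifferentiated state to 0.24 for the other melanocyte or neural crest markers, and the dashed line the median of all genes.

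Markers of other cell types were read for comparison, with no absolute level available for any of them. All probe sets were of the low class for 5 of 12 keratinocyte and 3 of 10 fibroblast markers. The same held for 5 of 12 blood and 1 of 7 retinal markers, and for 13.4% of all genes. A high-class probe set was present for 1, 0, 1 and 2 of these markers in turn, against 35.8% of all genes. Of 12 measured keratinocyte markers 1 rose and 2 fell (25% called, against 40.1% of all genes), with 0 higher and 7 lower with hybridization spike-ins. The list averaged -0.047 to 0.0021 in knockdown arrays, against 0.025 to 0.094 in control arrays. KRT15 fell by 0.66 (SE 0.059), KRT14 fell by 0.46 (SE 0.10) and KRT10 rose by 0.22 (SE 0.033), the last lost with hybridization spike-ins. Of 10 fibroblast markers 1 rose (LUM, 0.93, SE 0.10) and 1 fell (DCN, -0.23, SE 0.042), or 20% called, against 40.1% of all genes. With hybridization spike-ins 1 higher and 6 lower were called. The DCN call was lost with the probe set of largest variance and without the lowest signal class, where 3 and 2 of the list rose and none fell. The list averaged 0.0025 to 0.034 in knockdown arrays, against -0.067 to -0.012 in control arrays. Of 12 blood cell markers 2 rose, HBB (0.41, SE 0.066) and the lysosomal protein CD68 (0.40, SE 0.038), and none fell (16.7% called, against 40.1% of all genes). With hybridization spike-ins 2 higher and 3 lower were called, with a median of -0.12. The list averaged 0.019 to 0.056 in knockdown arrays, against -0.066 to -0.037 in control arrays. The retinal pigment epithelium, which also uses RLBP1, had 7 measured markers, of which none rose and TTR fell by 0.44 (SE 0.057), which is 14.3% called, against 40.1% of all genes. With hybridization spike-ins 4 of them were called lower. That list averaged -0.051 to 0.0031 in knockdown arrays, against 0.00019 to 0.039 in control arrays. As a sign of RNA quality, the ACTB control probes favoured the 3′ end by 0.19 more on knockdown than on control arrays, with no overlap; for GAPDH the figure was 0.023, with overlap. The part of RNA integrity in the differences of the pigment genes was not tested.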

How the data were processed

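Total RNA was labelled with biotin and hybridized to Affymetrix arrays, 1 per sample, per the labels' protocols. The submitters' processing notes name limma, RMA and affy without versions. Deposited values were read as log2 (the base is taken from RMA, not stated in the file), centred per probe set (largest absolute median 4.85e-07). Levels are thus lost, and the number of arrays limits the precision. Scaling between arrays hides a change of all transcripts in 1 direction.

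From these values the mean of the probe sets with 1 gene symbol was taken per gene and the groups were compared in limma 3.58.1 (lmFit, eBayes; R 4.3.3), unblocked, over 18132 genes, two-sided, with no filter. Changed means a Benjamini-Hochberg adjusted p under 0.05. Of 49395 probe sets, 102 were controls, 1832 named several genes and 2473 none. The fit was tested on simulated data. Tables were handled in Python 3.11.15 with pandas 2.3.3.

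A step of single-precision rounding gave the signal class (tolerance 0.05 of a step).

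Replicates are biological by their labels, with no shared day named. Same-numbered arrays did not deviate together (r = -0.030, -0.016 and -0.105 across genes), so the numbers were not taken as pairs. Arrays of 1 group shared at most 140 identical values. Named genes are UBE2S, all members, the 3 largest changes each way within a list, and a panel of 13 genes. The members and lists were chosen with earlier results of these data known. Alternatives were other summaries of probe sets, array centring on the median or on spike-ins (18 probe sets for hybridization, 24 for poly-A), array weights, robust variance, a replicate block, omission of the lowest class, each probe set alone and each array left out. Names and sequences come from a RefSeq table of GRCh38.p14.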

Additional observations from a re-analysis of the deposited data

How the results depend on the processing

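With hybridization spike-in centring, which moved the median of all genes to -0.17, the members' median was -0.029 (11 higher, 10 lower), and 1764 of all genes rose while 9196 fell. PAX3 (-0.013), DTNBP1 (-0.029) and TFEB (-0.055) then lay below 0 and were not called, and HPS4 (-0.12), NGFR (-0.14) and TFE3 (-0.15) were called lower. With poly-A spike-in centring the median of the members was 0.040, and 2486 of all genes rose while 6297 fell. With the probe set of largest variance in place of the mean the median of the members was 0.28, with 19 rises and 4 falls. Choosing by variance over all arrays favours wide differences in any gene with several probe sets. Read by 1 probe set alone, PAX3 (-0.022), GPNMB (-0.11) and DTNBP1 (-0.082) lay below 0 without passing, and MLPH (-0.19) passed as lower. Leaving out each array in turn gave 15 to 16 rises and 3 to 4 falls among members. With the replicate block 16 members rose and 3 fell, and UBE2S stood at -2.09. Of the members' calls RAB32 alone was lost under the block. Shares of all genes are not given for the largest-variance, left-out-array and block settings. Their counts compare only with the 16 rises and 4 falls of the members as deposited. The cause of these differences between settings was not tested.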
